A study of Homo sapiens with 9 samples.

Results

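Condensin is the ring-shaped protein machine that folds chromatin into compact chromosomes for cell division, and its 8 subunit genes were followed in HCC827 lung cancer cells after knockdown of CBX5, the gene of heterochromatin protein HP1 alpha. The 8 genes were taken by name: SMC2, SMC4, NCAPD2, NCAPD3, NCAPG, NCAPG2, NCAPH and NCAPH2. Each had 1 row among the 60675 genes of the count table, and 7 of the 8 had enough counts to be tested. HCC827 is an established human lung adenocarcinoma line with an activating mutation in EGFR, and the series' title ties loss of CBX5 to resistance against EGFR inhibitors. Polyadenylated RNA was sequenced from cells stably expressing CBX5 hairpin G1, CBX5 hairpin G7 or a non-silencing control hairpin (NS), all grown in DMEM with serum with no drug named in the labels, with 3 libraries per group and 9 in all. The replicates are called biological in the design text, but no label says whether they came from separate transductions, so the p-values measure the spread between these libraries.

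Human cells hold condensin I and condensin II, which share the ATPase pair SMC2 and SMC4. Condensin I adds NCAPD2, NCAPG and NCAPH, and condensin II adds NCAPD3, NCAPG2 and NCAPH2. In each complex a kleisin (NCAPH or NCAPH2) bridges the ATPase heads and carries a pair of HEAT-repeat subunits that bind DNA and regulate the ring. Condensin II resides in the nucleus through interphase and starts to compact chromosomes in prophase, while condensin I reaches the chromosomes after the nuclear envelope has broken down.

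Library totals were 16523561 to 19339887 counts with G1, 15781878 to 22372353 with G7 and 12701561 to 16030488 in NS, and the 8 genes together took 15659 to 19349, 11331 to 15008 and 6844 to 8530 of those counts. CBX5 itself had 141.6, 141.5 and 142.6 CPM with G1, 204.5, 203.6 and 201.5 CPM with G7, and 369.7, 377.1 and 360.9 CPM in NS, CPM being counts per 1e6 counts after TMM scaling (a scaling that corrects for library composition). Its log2 fold change was -1.38 with G1 and -0.86 with G7. G7 replicate 3 stood apart from its group. The chi-square statistic of its counts was 22.64 and 17.88 per degree of freedom against G7 replicates 1 and 2, where that between replicates 1 and 2 was 1.464. That library also had the highest share of mitochondrially encoded counts, 19.82%, against 13.37% to 17.72% in the other 8. The 5 epithelial markers EPCAM, KRT8, KRT18, KRT19 and CDH1 summed to 12600 to 12800 CPM with G1, 10400 to 11100 with G7 and 8730 to 9570 in NS, and 11 markers of blood, endothelium, fibroblasts and muscle summed to 89.4 to 95.6, 107 to 112 and 105 to 114 CPM, with CD3E, COL3A1, DES and HBB at no more than 3 counts in any library.

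The promoters of the subunit genes are shown because all tested subunits were higher with G1 than in NS. SMC4 is included although it had 0 counts in every library and could not be tested. Many genes of mitosis carry a cell cycle homology region (CHR), an element bound by the DREAM and MMB complexes, often close to a CCAAT box. RefSeq windows from 250 bases before to 50 bases after the start (GRCh38.p14) were at hand for 7 of the 8 genes, 10 windows in all, and NCAPH2 was not among them. Both strands were searched for TTTGAA (the CHR), CCAAT, and the E2F octamers TTTGGCGC and TTTCCCGC. A CHR match lay in 6 of the 10 windows, 1 each for SMC2, SMC4, NCAPD2, NCAPG, NCAPD3 and NCAPG2, and 15.2% of the 34796 distinct RefSeq windows of this length held one. In NCAPG the match lay 35 to 30 bases before the start, in SMC4 75 to 70 bases before it, and in SMC2 and NCAPD3 it spanned the start. The NCAPG2 match, at bases 36 to 41 after the start, lies outside any stretch printed here, as do 2 of the 4 NCAPD2 CCAAT matches. CCAAT matches were found in 3 windows, 4 matches in NCAPD2, 2 in NCAPD3 and 1 in NCAPH, against 34.6% of all windows with at least 1, and NCAPH was the only one of the 7 genes without a CHR match. An E2F octamer was matched only in the NCAPD3 window, 249 to 242 bases before the start, against 2.27% of all windows with either octamer. These matches describe letters and are no evidence of binding. The windows of the 5 genes below run from 150 bases before to 10 bases after the start, 5′ to 3′ on the gene's strand, with CHR and CCAAT matches of either strand in capitals. They lie at chr9:104094159-104094318 (plus strand), chr12:6493952-6494111 (plus strand), chr4:17810829-17810988 (plus strand), chr2:96335616-96335775 (plus strand) and, for the second RefSeq start of NCAPD3, chr11:134223958-134224117 (minus strand).
SMC2: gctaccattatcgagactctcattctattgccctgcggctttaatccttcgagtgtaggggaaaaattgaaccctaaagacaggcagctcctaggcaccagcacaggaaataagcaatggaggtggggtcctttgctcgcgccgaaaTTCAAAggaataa
NCAPD2: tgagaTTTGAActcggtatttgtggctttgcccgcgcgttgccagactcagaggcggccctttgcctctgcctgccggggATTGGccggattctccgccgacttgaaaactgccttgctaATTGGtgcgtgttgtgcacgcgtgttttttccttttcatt
NCAPG: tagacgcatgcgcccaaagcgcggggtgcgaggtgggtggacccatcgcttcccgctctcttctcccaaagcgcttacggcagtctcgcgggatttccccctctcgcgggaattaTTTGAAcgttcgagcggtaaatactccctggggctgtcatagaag
NCAPH: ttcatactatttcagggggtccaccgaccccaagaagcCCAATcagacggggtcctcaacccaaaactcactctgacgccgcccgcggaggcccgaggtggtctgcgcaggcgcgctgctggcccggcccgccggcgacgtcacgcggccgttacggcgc
NCAPD3: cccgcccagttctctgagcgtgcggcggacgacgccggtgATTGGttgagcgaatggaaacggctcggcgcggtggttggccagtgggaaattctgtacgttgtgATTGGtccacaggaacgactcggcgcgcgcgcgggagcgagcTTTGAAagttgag

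**Figure D1:**
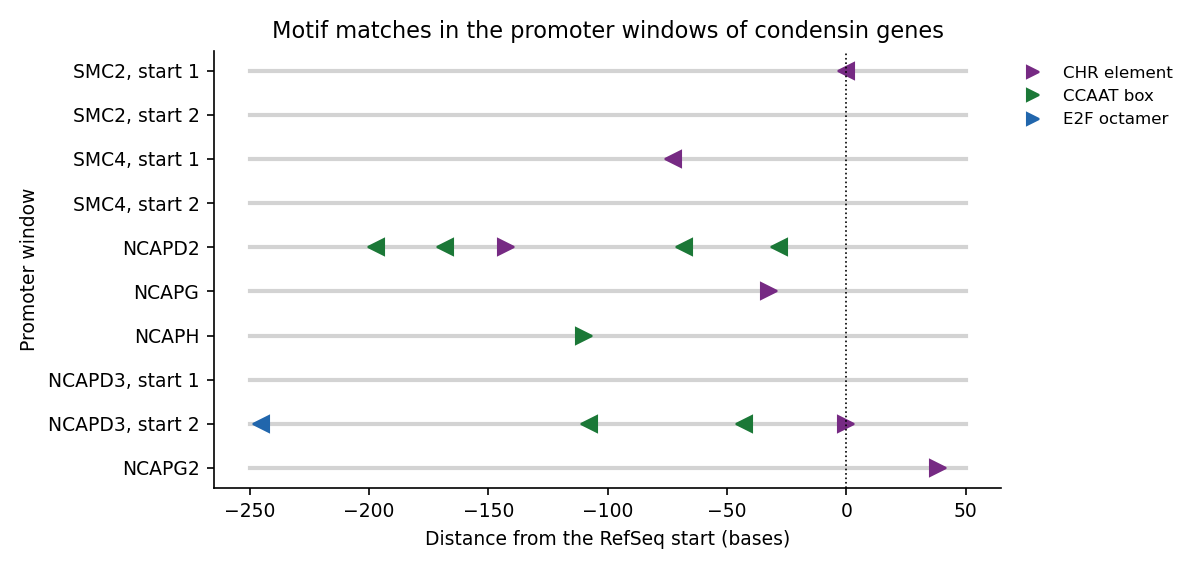
Matches to the CHR, CCAAT box and E2F octamers (arrows, pointing right for the strand of the gene and left for the other strand) along the 10 promoter windows of 7 condensin genes, by distance from the RefSeq start in bases. CHR matches lie in 6 windows, and 4 of the 7 CCAAT matches lie in that of NCAPD2.

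With G1 against NS, all 7 tested subunit genes rose, by 1.4-fold to 2.49-fold, and all 3 G1 libraries lay above all 3 NS libraries for each of them. The share of all genes whose libraries separate in this way was not counted, here or for the separations given below. Such separation is therefore not read as particular to these genes. The kleisin gene NCAPH and the HEAT-repeat gene NCAPG of condensin I rose most, and the condensin II kleisin gene NCAPH2 rose least. Of all 13264 genes tested, 30.4% were called higher and 28.7% lower in that comparison at an adjusted p under 0.05 (4031 and 3806 genes, or 3066 and 4815 with upper quartile scaling). The median log2 fold change was 0.97 over the 7 subunits and -0.01 over all genes. In bulk RNA, more dividing cells and more RNA per dividing cell cannot be told apart.

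SMC2 (ENSG00000136824, GRCh38 chr9:104094260-104141417), the ATPase of both complexes, had 146, 146.5 and 148.8 CPM in the G1 libraries, 97.6, 106.4 and 106.2 CPM in the G7 libraries and 80.3, 81.5 and 73.2 CPM in NS. The 3 groups did not overlap, G1 being highest and NS lowest. The log2 fold change of SMC2 was 0.91 (SE 0.05) with G1 (adjusted p = 3.02e-11) and 0.40 ± 0.051 with G7 (adjusted p = 1.75e-05). Every adjusted p given here is from the quasi-likelihood test of edgeR, with Benjamini-Hochberg adjustment over all genes tested. G1 exceeded G7 by 0.51 ± 0.048 on the log2 scale (adjusted p = 1.29e-07).

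SMC4 (ENSG00000113810, GRCh38 chr3:160399274-160434962), the partner ATPase without which no condensin ring forms, stood at 0 in every library and so could not be tested. A count of 0 allows up to 3 counts for counting error, which is 0.155 to 0.182 CPM in the G1 libraries, 0.134 to 0.19 in the G7 libraries and 0.187 to 0.236 in NS. The genes that overlap SMC4 on the other strand were also without counts: IFT80 and the readthrough gene AC079594.2 were at 0 in every library, and TRIM59 had 1 count in 1 library. KPNA4, which lies beyond TRIM59, had 2170 to 3722 counts per library. IFT80 and TRIM59 exons cover 7.18% and 18.46% of the SMC4 exon bases in GENCODE 29, and those of AC079594.2 cover 0.0%. Most SMC4 exon bases thus lie outside these exons in that release, while the release used in the counting is not given. These 0 values are uncertain, since a counter can skip reads in overlapping genes, and whether it did so here was not tested, so no level is read from them.

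NCAPD2 (ENSG00000010292, GRCh38 chr12:6493356-6531955), a HEAT-repeat subunit of condensin I, had the highest counts of the family. It reached 459.7, 461.8 and 462.4 CPM with G1, 327.7, 326.6 and 313.7 CPM with G7, and 248.9, 249.3 and 247.1 CPM in NS. Replicates lay within a few CPM of each other in G1 and NS, and the groups were far apart. The log2 fold change was 0.89 ± 0.038 with G1 (adjusted p = 9.49e-13) and 0.38 ± 0.038 with G7 (adjusted p = 1.78e-06).

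NCAPG (ENSG00000109805, GRCh38 chr4:17810902-17844862), the partner HEAT-repeat subunit, had 65.7, 68.8 and 65.1 CPM with G1, 39, 42.5 and 38.6 CPM with G7, and 27.6, 27.3 and 28 CPM in NS. No library of one group fell within the range of another. It rose 2.41-fold with G1 (log2 1.27 ± 0.057, adjusted p = 1.74e-12) and 1.44-fold with G7 (0.53 ± 0.059, adjusted p = 4.62e-06). LCORL, on the other strand, covers 33.14% of the NCAPG exon bases, so reads in that stretch depend on the strand setting of the counting, which is not given in the sources used here. The same limit holds for NCAPD2, where MRPL51 covers 7.49% of exon bases, and for NCAPD3, where JAM3 covers 5.1% and VPS26B 2.73%. Over all libraries MRPL51 had 18555 counts, VPS26B 5031, LCORL 922 and JAM3 5.

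NCAPH (ENSG00000121152, GRCh38 chr2:96335787-96373845), the condensin I kleisin, had 98.7, 91.6 and 103.6 CPM with G1, 64.7, 64.2 and 69.1 CPM with G7, and 39.5, 38.3 and 40 CPM in NS. All G1 libraries lay above all G7 libraries, and those above all NS libraries. It rose 2.49-fold with G1 (log2 1.32 ± 0.056, adjusted p = 8.71e-13) and 1.68-fold with G7 (0.75 ± 0.057, adjusted p = 5.34e-08). Only 0.769% of the 13264 genes had a larger log2 fold change than NCAPH with G1, and 0.761% with G7.

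**Figure D2:**
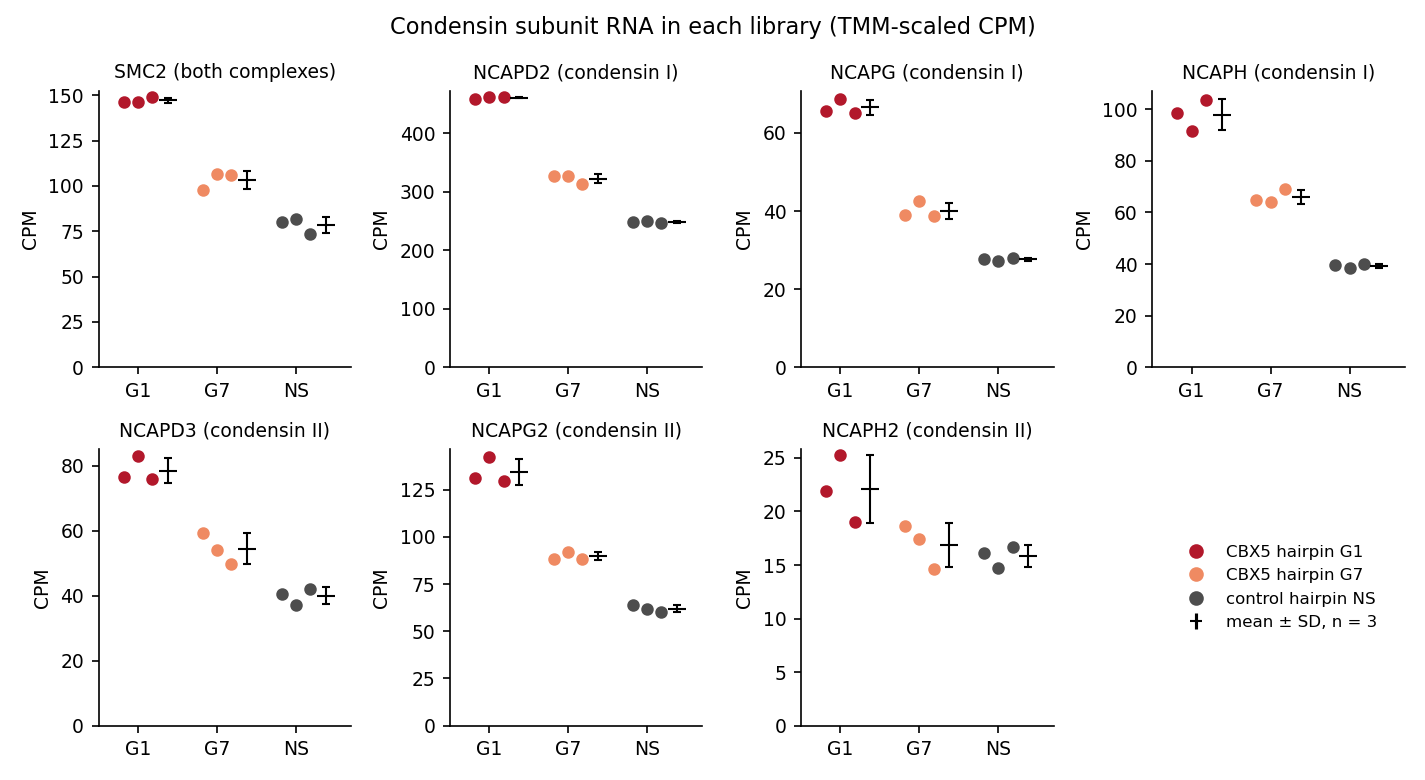
TMM-scaled CPM of the 7 tested condensin genes in each library (points, replicates 1 to 3 from left to right) with hairpin G1, hairpin G7 or the control hairpin NS, and the mean ± SD of each group (n = 3). G1 libraries lie highest and NS libraries lowest for every gene but NCAPH2, whose G7 and NS libraries overlap.

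NCAPD3 (ENSG00000151503, GRCh38 chr11:134150119-134225454), a HEAT-repeat subunit of condensin II, had 76.5, 82.9 and 76 CPM with G1, 59.3, 54.2 and 49.9 CPM with G7, and 40.6, 37.2 and 42.2 CPM in NS. The groups did not overlap, although G7 libraries spread more than for most subunits. The log2 fold change was 0.97 ± 0.067 with G1 (adjusted p = 6.08e-10) and 0.45 ± 0.068 with G7 (adjusted p = 0.000127).

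NCAPG2 (ENSG00000146918, GRCh38 chr7:158631311-158704829), the partner HEAT-repeat subunit of condensin II, had 131.4, 142.5 and 129.9 CPM with G1, 88.5, 92.3 and 88.5 CPM with G7, and 64.2, 61.7 and 60.2 CPM in NS. G1 stood clear of G7 and G7 of NS. It rose 2.17-fold with G1 (log2 1.12 ± 0.049, adjusted p = 1.32e-12) and 1.45-fold with G7 (0.53 ± 0.05, adjusted p = 7.22e-07).

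NCAPH2 (ENSG00000025770, GRCh38 chr22:50508216-50523472), the condensin II kleisin, had the lowest counts, 213 to 481 per library. It reached 21.9, 25.3 and 19 CPM with G1, 18.6, 17.4 and 14.6 CPM with G7, and 16.1, 14.7 and 16.7 CPM in NS. The G1 libraries lay above the others by a small margin, and the G7 libraries lay on both sides of the NS libraries. NCAPH2 rose 1.4-fold with G1 (log2 0.48 ± 0.107, adjusted p = 0.000778). With G7 its log2 fold change of 0.09 ± 0.109 was not called (adjusted p = 0.631), which does not show that it was unaltered.

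NCAPH2 also varied within groups along with the share of mitochondrially encoded counts. That share was 14.85%, 13.37% and 16.56% in G1 replicates 1 to 3, 14.38%, 14.63% and 19.82% in those of G7, and 15.04%, 17.72% and 15.58% in those of NS. In each group the library with the highest share had the lowest NCAPH2 and the lowest NCAPD3 CPM, which were 19 and 76 CPM in G1 replicate 3, 14.6 and 49.9 CPM in G7 replicate 3, and 14.7 and 37.2 CPM in NS replicate 2. NCAPG of condensin I was also lowest in those libraries, by small margins, at 65.1, 38.6 and 27.3 CPM. How many of all genes follow that order was not counted. NCAPH went the other way in the hairpin groups, being highest at 103.6 and 69.1 CPM in G1 and G7 replicate 3. The part of this share in the subunit values was not tested.

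With G7 against NS, 6 of the 7 tested subunits rose and NCAPH2 was not called. The 6 that rose ranged from 1.3-fold (NCAPD2) to 1.68-fold (NCAPH), and for each of them all 3 G7 libraries lay above all 3 NS libraries. Over all genes, 13.1% were called higher and 9.64% lower (1735 and 1279 genes, or 1398 and 1603 with upper quartile scaling). The median log2 fold change was 0.45 over the 7 subunits and 0.01 over all genes. Both hairpins were set against the same 3 NS libraries, so these values and those of G1 are not independent of each other.

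With G1 against G7, all 7 tested subunits were higher with G1, the hairpin with less CBX5 RNA left, and no G1 library overlapped a G7 library. NCAPG differed most, by 0.74 ± 0.053 on the log2 scale (adjusted p = 3.31e-09), and NCAPH2 least, by 0.40 ± 0.102 (adjusted p = 0.00379). Between them lay NCAPG2 at 0.59, NCAPH at 0.57, NCAPD3 at 0.53, NCAPD2 at 0.52 and SMC2 at 0.51. Over all genes, 23.3% were called higher and 21.6% lower with G1 than with G7 (3092 and 2870 genes, or 2346 and 3751 with upper quartile scaling). The subunits' median was 0.53, and that of all genes was -0.01.

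**Figure D3:**
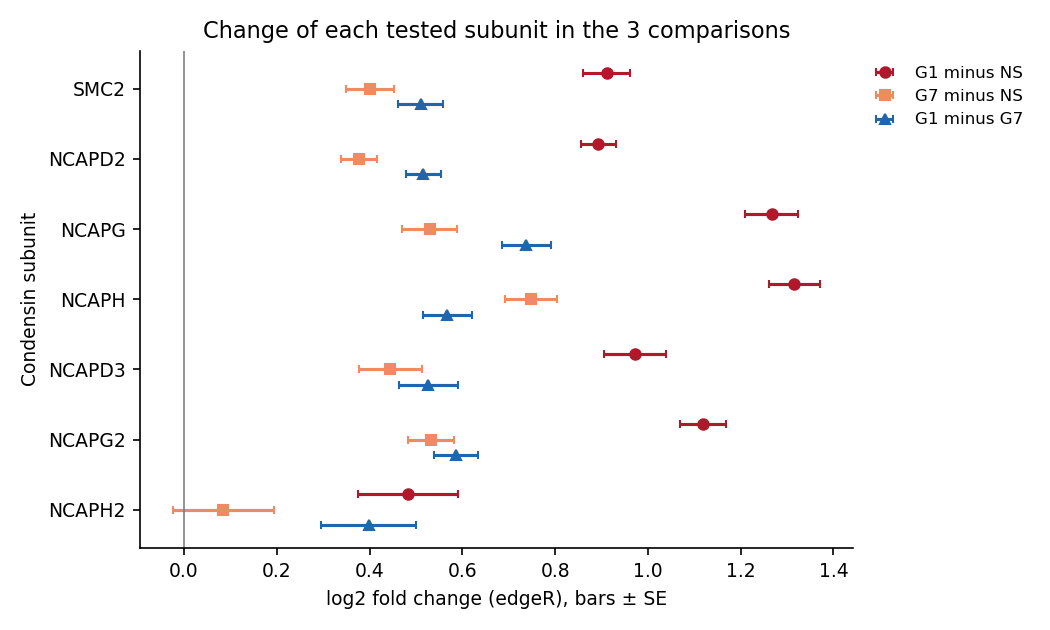
The log2 fold change (edgeR, horizontal bars ± SE) of the 7 tested subunits for G1 minus NS, G7 minus NS and G1 minus G7. All values are positive, and the G7 minus NS value of NCAPH2, 0.09, is the one whose bar reaches 0.

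Levels can be set beside each other between genes only per length, as CPM per kilobase of the union of annotated exons. In G1 libraries NCAPD2 stood at 71.1 ± 0.22 CPM per kilobase, NCAPH at 29.9 ± 1.8, SMC2 at 22.7 ± 0.23, NCAPG2 at 19.3 ± 0.99, NCAPG at 13.5 ± 0.4, NCAPD3 at 8.61 ± 0.42 and NCAPH2 at 6.99 ± 1 (SD, n = 3 each). With G7 the levels were 49.7, 20.1, 16, 12.8, 8.13, 5.98 and 5.33 CPM per kilobase in that order of genes. In NS they were 38.3, 12, 12.1, 8.88, 5.62, 4.39 and 5.01. NCAPD2 led in every group, and SMC2 and NCAPH were level in NS, where their libraries overlapped. The order below NCAPD2 and NCAPH depends on the length used. With the longest transcript of each gene, NCAPG2 stood at 25.6 and SMC2 at 24.6 CPM per kilobase in G1, at 17.1 and 17.3 in G7, and at 11.8 and 13.1 in NS. By that length NS levels were 5.93 for NCAPG, 7.22 for NCAPD3 and 7.63 for NCAPH2, which puts NCAPG last.

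The balance of the complexes was followed as the log2 ratio of summed CPM per kilobase of NCAPD3, NCAPG2 and NCAPH2 over that of NCAPD2, NCAPG and NCAPH. It was -1.75, -1.59 and -1.82 in the G1 libraries, -1.64, -1.67 and -1.76 in the G7 libraries and -1.58, -1.66 and -1.60 in NS. The 3 groups overlapped in this sum, which is carried largely by NCAPD2. With the mean of the log2 values in place of the sum, which weights the subunits alike, the ratio was -1.57, -1.41 and -1.67 with G1, -1.34, -1.43 and -1.55 with G7, and -1.21, -1.30 and -1.22 in NS. Every hairpin library then lay below every NS library, by -0.31 on average with G1 and -0.20 with G7. With both kleisins left out of the sum, the ratio was -1.63, -1.53 and -1.65 with G1, -1.61, -1.62 and -1.63 with G7, and -1.69, -1.77 and -1.73 in NS. Every hairpin library now lay above every NS library, by 0.12 on average with G1 and 0.11 with G7. In the sum, leaving out both kleisins turned the mean difference from -0.105 to 0.124 with G1 and from -0.079 to 0.107 with G7. The mean of log2 values is also the mean of the log2 ratios of the 3 matched pairs. Against NS, the kleisin pair NCAPH2 to NCAPH differed by -0.846 with G1 and -0.663 with G7. NCAPG2 to NCAPG differed by -0.151 and 0.0, and NCAPD3 to NCAPD2 by 0.081 and 0.068. The kleisin pair thus differed most, and the mean without it was not taken.

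The log2 ratio of NCAPH2 to NCAPH was -2.12, -1.80 and -2.40 with G1, -1.75, -1.83 and -2.19 with G7, and -1.24, -1.33 and -1.21 in NS. Every hairpin library lay below every NS library, and G1 and G7 overlapped. As a plain ratio per kilobase, the mean was 0.236 with G1, 0.266 with G7 and 0.418 in NS. The ratio of NCAPG2 to NCAPG, on the log2 scale, was 0.51 ± 0.031 with G1, 0.66 ± 0.041 with G7 and 0.66 ± 0.059 in NS (SD, n = 3 each), G1 lying below both. That of NCAPD3 to NCAPD2 was -3.05 ± 0.068, -3.06 ± 0.095 and -3.13 ± 0.099, and overlapped in all pairs of groups. These ratios were picked among the members and carry no test.

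**Figure D4:**
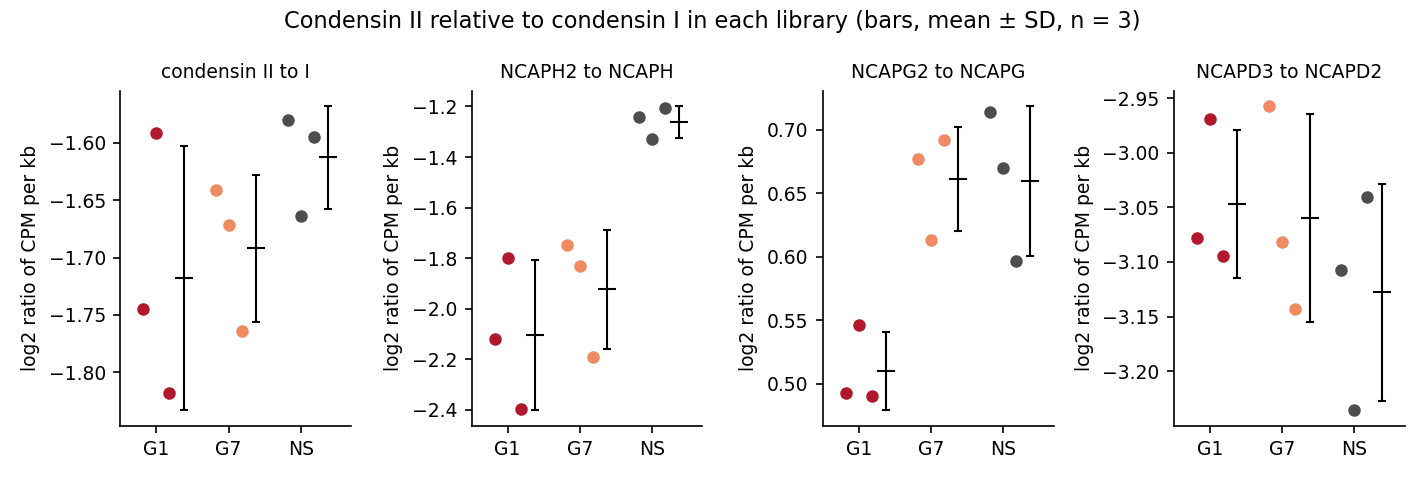
The log2 ratio, per kilobase of exon, of condensin II to condensin I subunits in each library (points) with the mean ± SD of each group (n = 3), for the summed subunits and for the 3 matched pairs, each panel on its own scale. Of the 4 panels, only NCAPH2 to NCAPH separates every hairpin library from every NS library.

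Regulators of condensin rose with it in part. Of 12 listed genes, 10 rose and 0 fell with G1 (median log2 fold change 0.77), and 8 rose and 0 fell with G7 (median 0.33). Among all genes tested, 30.4% were called higher and 28.7% lower with G1, and 13.1% and 9.64% with G7. AURKA, a mitotic kinase, had a log2 fold change of 1.14 with G1 and 0.46 with G7, CCNB1, the cyclin partner of CDK1, 1.10 and 0.41, the checkpoint kinase gene TTK 0.92 and 0.39, and KIF4A, the chromokinesin that works with condensin I, 0.75 and 0.30, all called. The 2 genes not called with G1 both act to restrain condensin, and were named after their values were seen. MCPH1, the inhibitor of condensin II, averaged 14.75 ± 0.597 CPM with G1, 14.09 CPM with G7 and 14.27 ± 1.14 CPM in NS. CSNK2A1, a catalytic subunit of casein kinase 2, which phosphorylates condensin I in interphase, averaged 379.3, 381.3 and 362.4 CPM. Their log2 fold changes were 0.05 and 0.07 with G1 (adjusted p = 0.66 and 0.325). With G7, 4 of the 12 genes were not called. Besides MCPH1 and CSNK2A1 these were AKAP8 (0.082, adjusted p = 0.3) and RB1 (0.125, adjusted p = 0.0788), also named after their values were seen.

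Other genes of the mitotic chromosome were higher too. Of 12 listed, 12 rose and 0 fell with G1 (median 0.81), and 10 rose and 0 fell with G7 (median 0.37). The shares of all genes called higher and lower were 30.4% and 28.7% with G1, and 13.1% and 9.64% with G7. BIRC5, which encodes survivin of the chromosomal passenger complex, had a log2 fold change of 1.245 with G1 and 0.48 with G7. MKI67, the surfactant-like coat protein of mitotic chromosomes, had 1.14 and 0.47, ESPL1 (separase) 0.89 and 0.60, and HJURP, the chaperone of centromeric histone, 0.83 and 0.43. MKI67 and CCNB1 also mark cycling cells, and their part in the subunit values was not tested.

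Regulators of mitotic promoters were listed as well. Of 10 tested, 8 rose and 1 fell with G1 (median 0.65), and 7 rose and 1 fell with G7 (median 0.29). Beside these stand 30.4% higher and 28.7% lower of all genes with G1, and 13.1% and 9.64% with G7. LIN37 was listed at 0 in every library. MYBL2, the B-Myb subunit of MMB, averaged 279 ± 10.4 CPM with G1, 137.7 CPM with G7 and 76.61 ± 2.64 CPM in NS, a log2 fold change of 1.86 and 0.85. E2F1 had 1.58 and 0.89, and its partner TFDP1 0.81 and 0.31. RBL2, which encodes the pocket protein p130 of the repressing DREAM complex, fell by 0.57 on the log2 scale with G1 (adjusted p = 1.49e-09) and by 0.20 with G7 (adjusted p = 0.00188). RBL1 and E2F4 of the same list, named after their values were seen, did not share that fall. Both were called higher with each hairpin, RBL1 at 0.656 with G1 and 0.228 with G7, and E2F4 at 0.406 and 0.285.

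The other SMC complexes gave smaller medians. Of the 5 core genes of cohesin, which holds sister chromatids together, 4 rose and 0 fell with G1 (median 0.53), and 3 rose and 1 fell with G7 (median 0.18). For all genes the shares were 30.4% higher and 28.7% lower with G1, and 13.1% and 9.64% with G7. SMC1A had a log2 fold change of 0.82 with G1 and 0.34 with G7, RAD21 0.59 and 0.29, SMC3 0.35 and 0.18, and STAG1 0.53 and, not called, 0.03. STAG2 was not called with G1 (-0.02) and fell by 0.24 with G7 (adjusted p = 0.000325). The G7 call of SMC3 (adjusted p = 0.0419) was lost with upper quartile scaling (0.15, adjusted p = 0.0825) and without G1 replicate 1, any 1 of the G7 replicates, NS replicate 1 or NS replicate 3 (0.121 to 0.271 over all libraries left out in turn).

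Of the 5 tested genes of the SMC5/6 complex, which acts in DNA repair, 2 rose and 0 fell with G1 (median 0.15), namely SMC6 at 0.30 and SMC5 at 0.25, where 30.4% of all genes were called higher. With G7, 0 of 5 were called by edgeR (median 0.03), 0 at an unadjusted p under 0.05 and 0 by DESeq2, where 13.1% of all genes were called higher and 9.64% lower. With so few genes, these counts are near the background and are no result about the complex. NSMCE2 had -0.10 with G1 and NSMCE4A 0.14, neither called, although NSMCE2 was called lower with upper quartile scaling (-0.184, adjusted p = 0.00956) and without NS replicate 3 (-0.154), and NSMCE3 was listed at 0 in every library. Whether condensin genes changed more than cohesin or SMC5/6 genes was not tested.

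**Figure D5:**
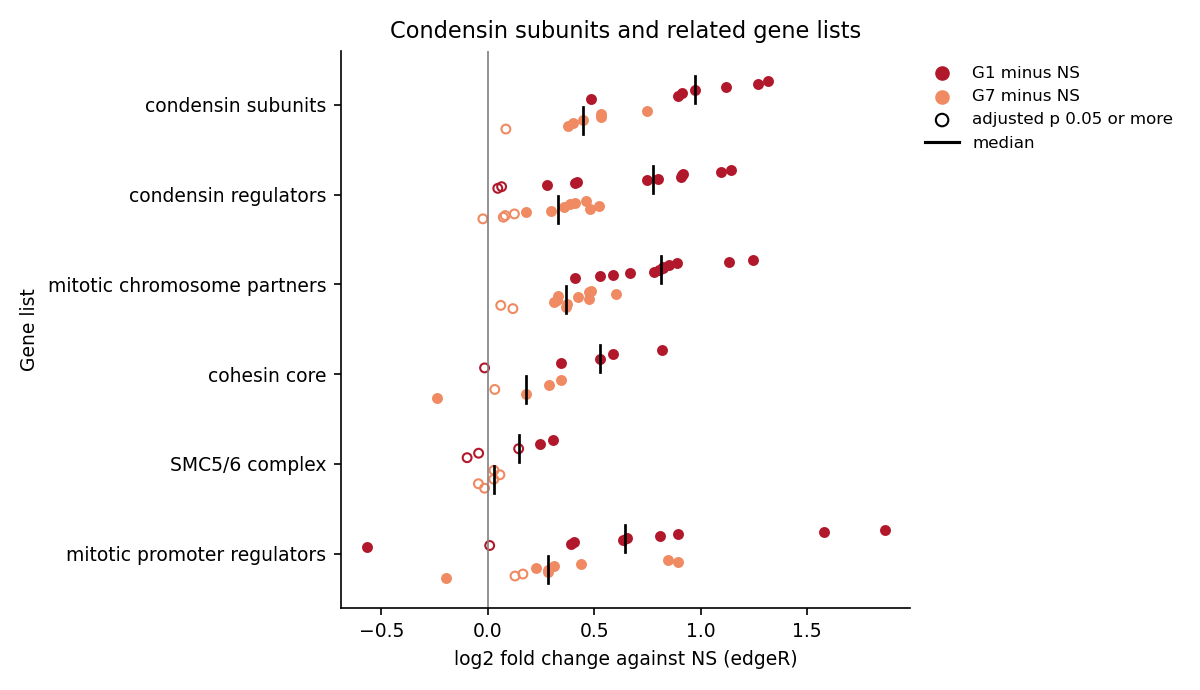
The log2 fold change against NS of the condensin subunits and of the 5 related gene lists (1 point per tested gene, filled where the adjusted p was under 0.05), with G1 above G7 in each row and the median of each as a black line. Condensin medians are 0.97 with G1 and 0.45 with G7.

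The genes most like the subunits over the 9 libraries were found by the root mean square difference of centred log2 CPM, among 8588 genes with a mean of at least 10 CPM. For SMC2 they were KIF23, a kinesin of cytokinesis, at 0.03, the splicing regulator HNRNPA2B1 at 0.036 and MCMBP, a partner of the replicative helicase, at 0.037, where the median gene lay at 0.361. For the mean of NCAPD2, NCAPG and NCAPH they were the checkpoint kinase BUB1 at 0.042, AURKA at 0.044 and BARD1, the partner of BRCA1, at 0.047, with a median gene at 0.455. For the mean of NCAPD3, NCAPG2 and NCAPH2 they were the peroxiredoxin PRDX1 at 0.036, the nucleoporin NUP93 at 0.041 and IMPA2, an inositol monophosphatase, at 0.044, with a median gene at 0.343. Likeness here rests on 3 group levels and says nothing of shared function.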

How the data were processed

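Raw read counts per Ensembl gene were deposited by the authors without normalization, 1 column for each of the 9 libraries. Per the labels' protocols, messenger RNA was taken with oligo-dT beads and libraries were made strand-specific with dUTP. The build hg38 (GRCh38), HTSeq 0.6.0 and TopHat2 2.1.0 are named in the submitters' processing notes. For the annotation release, the strand setting and any read filter, the setting is not given in the sources used here.

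Of 60675 rows, 57055 matched GENCODE 29, which gave symbols, coordinates and lengths. Columns were matched to samples by title. The fit used edgeR 4.0.16 under R 4.3.3, with filterByExpr by group (13264 genes tested), TMM scaling, and a quasi-likelihood fit with 1 mean per group over all 9 libraries (common dispersion 0.00217). The 3 contrasts were two-sided, adjusted by Benjamini-Hochberg over all genes tested, and called at an adjusted p under 0.05. The members, the 5 gene lists and the rule for named genes were chosen with earlier results of these data known. The rule named the subunits, CBX5, up to 4 tested genes per list with the smallest p in G1 against NS and a mean of at least 2 CPM, list members whose direction differed from most of their list, and the 3 genes nearest to each of 3 mean profiles. Of the listed genes, 1 is not reported here by name. All pairs of replicates differed by more than sampling noise (chi-square per degree of freedom of 1.464 to 22.64). The fit was tested on simulated counts with 200 changed genes. Alternatives were RLE and upper quartile scaling, no filter, DESeq2 1.42.0, 2 groups only, a replicate block, no mitochondrial genes and leaving out each library. Values after ± are SEs of the fit for log2 fold changes and SDs between the 3 libraries for levels and ratios, and the floor of 3 counts covers counting error only.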

Additional observations from a re-analysis of the deposited data

How the results depend on the processing

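All 7 tested subunits kept their direction and their side of the threshold in the 3 comparisons under all 16 alternatives, with 7 called for G1 against NS, 6 for G7 against NS and 7 for G1 against G7 in each, also without G7 replicate 3. NCAPH2 ranged most for its size, from 0.37 to 0.58 with G1 (largest adjusted p = 0.00747), from 0.00 to 0.19 with G7 (smallest adjusted p = 0.195) and from 0.28 to 0.49 between the hairpins (largest adjusted p = 0.0384). The counts of the 5 lists stayed within 1.5 times of those given.

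Same-numbered libraries had correlations of deviations from the group means of 0.0851, 0.251 and 0.382 between G1 and G7, of -0.149 to -0.0445 between G1 and NS, and of -0.128 to 0.1 between G7 and NS. In no comparison were all 3 above 0.1, so the numbers were not taken as pairs, although those of G1 and G7 were all positive. G7 replicate 1 correlated better with G1 replicate 2 (0.207) than with G1 replicate 1. With the replicate block, 7, 6 and 7 subunits were called, the genes called higher and lower over all numbered 4074 and 3835, 1800 and 1317, and 3165 and 2904 in the 3 comparisons, and NCAPH2 had 0.47, 0.08 and 0.39. The block changed no call on a subunit.

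The condensin II to I ratio moved with the mean of log2 values, to -0.305 for G1 against NS and -0.198 for G7 against NS. Without 1 library it ran from -0.168 to -0.055, from -0.105 to -0.044, and, for G1 against G7, from -0.089 to 0.024, turning its direction without G1 replicate 3; the cause was not tested.

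Genes that turned direction were not called by the test as reported. With G1 against NS these were STAG2 (0.013 without the filter, 0.003 with DESeq2, -0.045 to 0.011 without 1 library, but -0.102 and called with upper quartile scaling), MCPH1 (-0.04 with upper quartile scaling) and CSNK2A1 (-0.021 with it). With G7 against NS, leaving out 1 library gave -0.06 to 0.097 for STAG1, -0.018 to 0.074 for SMC6, -0.072 to 0.033 for NSMCE2, -0.033 to 0.108 for NSMCE4A and -0.067 to 0.04 for MCPH1. With G1 against G7, CSNK2A1 had 0.019 without the filter, 0.009 with DESeq2 and -0.048 to 0.051 without 1 library. The G7 call of SMC3 was also lost without mitochondrial genes (0.166), with 2 groups only (0.172) and without G1 replicate 1, any G7 replicate, NS replicate 1 or NS replicate 3 (0.121 to 0.271 over all 9 left out in turn), and that of IMPA2 without G7 replicate 1, G7 replicate 2 or NS replicate 2 (0.253 to 0.388). The cause was not tested.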
